A study of Mus musculus with 4 samples.

Results

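The genes described here are 172 protein-coding genes of the mouse at which an RNA polymerase II (Pol II) peak lay near a transcription start site (TSS) in each old WT Cre library and in no young EC-K4KO library. They were selected on the peak calls of all 4 libraries: a gene entered when a peak interval overlapped the 1500 bp on either side of any of its annotated TSS (GENCODE M21, GRCm38, the mm10 build) in both libraries of the first group, with no such interval in the second. They make up 172 of 21951 protein-coding genes, or 0.784%. The reverse pattern, promoter peaks in both young EC-K4KO but neither old WT Cre library, was found at 685 genes, or 3.12%. Since all 4 libraries chose the genes, presence and absence of peaks and the strength of those peaks are given as a description, with no test.

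Pol II transcribes all protein-coding genes of the nucleus. In chromatin immunoprecipitation sequencing (ChIP-seq) it usually gathers just downstream of the TSS of active genes, where it pauses before elongation, and thinner signal follows along the gene body. Most genes that are used in every cell start from CpG islands, stretches in which the CpG dinucleotide is kept, whereas many genes used in a few tissues start from CpG-poor promoters. In brain endothelial cells (ECs), which line the vessels and form the blood-brain barrier, the genes in use include cell adhesion molecules, nutrient carriers and efflux pumps beside the genes that all cells need.

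Each library came from 200000 flow-sorted brain ECs, whose chromatin was cut with micrococcal nuclease before Pol II was pulled down. Old WT Cre mice, aged 20 to 23 mo, carried the tamoxifen-inducible CDH5-CreERT2 driver alone, which is active in endothelial cells. Young EC-K4KO mice, aged 4 to 6 mo, carried the same driver with a floxed Klf4 gene. Both groups had received tamoxifen at 8 wk, so the control mice had an active Cre as well, and both were on the C57BL/6J background. There were 2 libraries per group. The study calls them biological replicates, and the labels do not say whether cells of several mice were pooled. Genotype and age differed together, so a difference between the groups cannot be assigned to either: the effects of Klf4 loss and of age cannot be told apart here.

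Libraries differed in depth and far more in the number of peaks. Old WT Cre replicates 1 and 2 held 65734178 and 27455452 fragments and 78851 and 39674 peaks, and young EC-K4KO replicates 1 and 2 held 35227929 and 22705175 fragments and 35638 and 235591 peaks. A promoter peak was found at 5621, 5371, 2337 and 14822 genes in that order, so that young EC-K4KO replicate 2, the shallowest library, marked 67.5% of all protein-coding genes and young EC-K4KO replicate 1 marked 10.6%. Klf4 itself (chr4:55527143-55532466, GRCm38) had a promoter peak in each young EC-K4KO library, with fold enrichments of 4.2 and 4.17, and none in old WT Cre. The nearest peak of old WT Cre replicate 1 lay 1852 bp from the TSS, not far past the window, and that of old WT Cre replicate 2 lay 17281 bp away. The peak of young EC-K4KO replicate 1 lay 995 bp upstream of the TSS and that of young EC-K4KO replicate 2 lay 1198 bp downstream in an intron. The sources used here do not give which exons are floxed. Whether the peak of young EC-K4KO replicate 2 lies in the deleted part could thus not be checked, and the genotype is not checked by these peaks. Of 15 endothelial marker genes, 6, 6, 0 and 8 had a promoter peak in the 4 libraries, and Pecam1, Tek, Tie1, Esam and Slco1a4 had none in any. The counts were 1, 2, 1 and 5 of 7 neuronal markers, 3, 1, 0 and 5 of 7 microglial markers, and 3, 0, 2 and 5 of 7 mural cell markers. They were 2, 1, 0 and 3 of 5 astrocyte markers and 1, 1, 1 and 5 of 6 oligodendrocyte markers. Of 6 neutrophil and lymphocyte markers they were 0, 1, 1 and 2, and of 3 erythroid markers 0, 0, 1 and 2. Over all protein-coding genes, the shares with a promoter peak were 25.6%, 24.5%, 10.6% and 67.5% in the same order. The part of other cell types in the results was not tested.

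Young EC-K4KO replicate 2 did most of the choosing. Of the 2218 genes marked at the promoter by both old WT Cre libraries, 2023 (91.2%) had a promoter peak in young EC-K4KO replicate 2 and 510 had one in young EC-K4KO replicate 1, which left 172 (7.75%) with a peak in neither. Without young EC-K4KO replicate 2 the rule gave 1708 genes, and without young EC-K4KO replicate 1 it gave 195. Without old WT Cre replicate 1 or 2 it gave 555 and 832. All 172 genes are contained in each of these larger sets by construction. For comparison, 3 sets were drawn from the same calls: 487 genes with a promoter peak in all 4 libraries, 1536 genes marked by both old libraries and, of the young ones, by replicate 2 alone, and the 685 genes of the reverse pattern.

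The genes fall into a broad mixture, of which 6 stretches of sequence show the main kinds. The window below, 151 bases centred on the summit of the Olfm5 peak in old WT Cre replicate 1, shows the kind of repeat found under some of the leading peaks. Capitals mark unbroken runs of a tandem repeat of at least 16 bases. It is on the plus strand of GRCm38 and overlaps no exon.
Olfm5, chr7:104165956-104166106: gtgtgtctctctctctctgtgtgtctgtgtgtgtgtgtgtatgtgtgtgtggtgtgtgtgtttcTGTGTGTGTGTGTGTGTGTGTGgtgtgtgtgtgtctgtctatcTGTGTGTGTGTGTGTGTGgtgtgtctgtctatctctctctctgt
The runs are of TG. The next 5 stretches show the start regions of genes used in many tissues and of a barrier gene, cut where the nearest exon begins. Capitals mark, on either strand, the CCAAT box (the letters of its name), the GC box (GGGCGG) and the binding site of AP-1 (TGANTCA). The first 2 are the gaps between genes that start in opposite directions, given on the plus strand, and the last 3 are the bases just before the annotated start, in the direction of the gene (the minus strand for Top2a).
Fam185a and Ccdc146, chr5:21424678-21424860: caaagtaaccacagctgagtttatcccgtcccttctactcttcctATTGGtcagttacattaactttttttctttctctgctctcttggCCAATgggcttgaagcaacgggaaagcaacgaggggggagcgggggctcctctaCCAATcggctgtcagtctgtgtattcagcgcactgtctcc
Higd2a and Nop16, chr13:54590098-54590206: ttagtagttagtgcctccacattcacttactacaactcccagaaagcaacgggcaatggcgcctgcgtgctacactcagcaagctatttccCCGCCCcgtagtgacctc
Top2a, chr11:99024200-99024339: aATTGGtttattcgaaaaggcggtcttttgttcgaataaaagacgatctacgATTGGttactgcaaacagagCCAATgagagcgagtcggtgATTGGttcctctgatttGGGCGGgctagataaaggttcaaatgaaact
Abcb1a, chr5:8659927-8660076: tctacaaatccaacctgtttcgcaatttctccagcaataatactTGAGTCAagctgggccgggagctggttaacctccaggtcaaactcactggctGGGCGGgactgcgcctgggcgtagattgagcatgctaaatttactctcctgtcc
Nop58, chr1:59684859-59684960: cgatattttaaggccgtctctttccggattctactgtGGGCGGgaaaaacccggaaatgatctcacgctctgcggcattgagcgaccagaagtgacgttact
The stretch before Top2a held 4 CCAAT boxes and 1 GC box, that between Fam185a and Ccdc146 held 3 CCAAT boxes, and that before Abcb1a held 1 AP-1 site and 1 GC box. Across all genes these letters are common: in the 300 bases from 250 before to 50 after the start, read from GRCm38, 38.1% of 21938 promoters held a CCAAT box on either strand, 45.9% held a GC box and 6.58% held an AP-1 site. The same windows of the 172 genes held them at 39.0%, 45.3% and 7.56%. Of the other motifs searched on both strands, the TATA box (TATAAA) was in 15.1% of the 172 promoters against 12.2% of all promoters, and the CACCC box of the kind that KLF proteins bind (CACACCC) was in 9.30% against 8.39%. The ETS site (CCGGAAG) was in 11.6% against 11.4%, the cyclic AMP response element core (TGACGTC) in 2.91% against 4.05%, the E-box (CACGTG) in 8.72% against 7.78% and the NF-κB core (GGGAATT) in 4.65% against 3.59%. Windows with several motifs count under each. A match of letters is no measurement of binding.

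Peak strength is given here in the units of the peak caller, each relative to its own library. The pileup is the number of fragments that cover the summit, the fold enrichment divides it by the background expected around the peak in that library, and the −log10 q states how far the peak stands above that background after correction over the genome. Where a gene had several promoter peaks in a library, the one with the largest −log10 q was used. Summit positions are in bp from the nearest annotated TSS of the gene, negative where upstream. Over the 172 genes, fold enrichment ran from 2.54 to 6.95 with a median of 3.83 in old WT Cre replicate 1, and from 3.05 to 8.58 with a median of 5.17 in replicate 2. The pileup behind these values was small, 14 to 71 fragments with a median of 21 in replicate 1, and 8 to 44 with a median of 14 in replicate 2. The smallest pileup of any called peak was 13 and 8 fragments in these 2 libraries and the median over all their peaks 21 and 13, so the medians of the genes lay close to those of all peaks. The medians were 22 and 14 for the genes marked in all 4 libraries. The genes marked in all 4 libraries had median fold enrichments of 4.32 and 5.55, and those marked in both old libraries and young EC-K4KO replicate 2 had 3.94 and 5.11.

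Scaled to the fragments of its library, the pileup at 100 of the 172 genes was above the smallest called pileup of both young libraries in both old libraries. The limit lay mostly with young EC-K4KO replicate 2 and old WT Cre replicate 1. The scaled pileup of old WT Cre replicate 1 was above the smallest called in young EC-K4KO replicate 1 at 153 genes and above the smallest called in young EC-K4KO replicate 2 at 100. That of old WT Cre replicate 2 was above them at 172 and 171 genes. Where it was not above, the list of that young library holds no peak of such a height, so a difference in height from that library was not detectable. Read counts at the young promoters were not analysed here, so an absent peak means only that no interval was called.

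**Figure D1:**
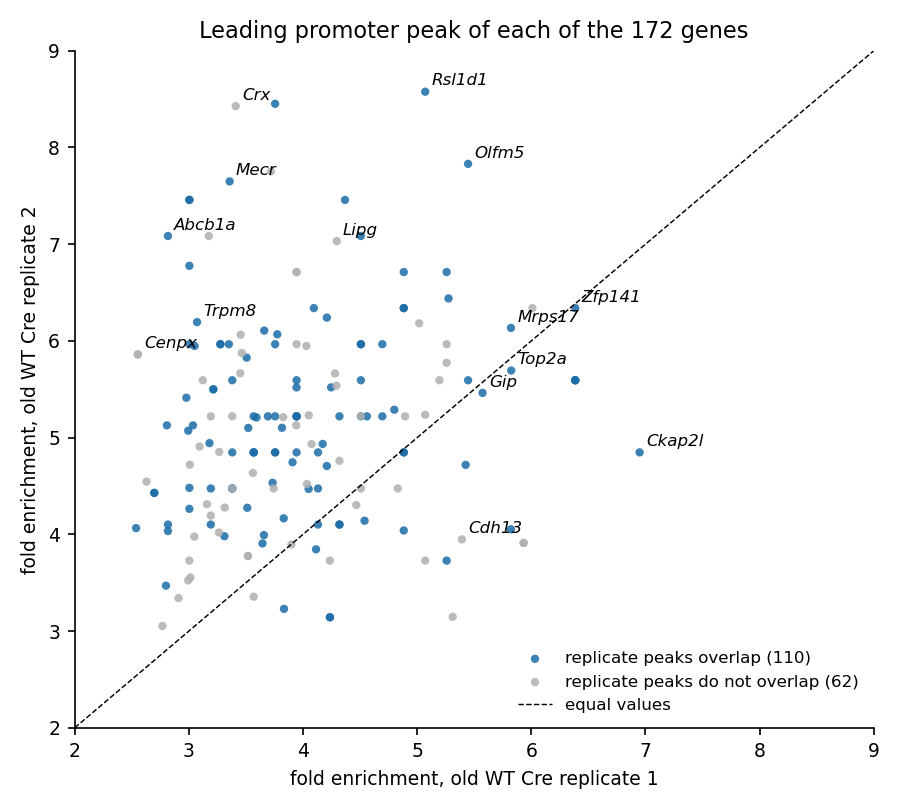
Fold enrichment of the leading promoter peak of each of the 172 genes in old WT Cre replicate 1 (horizontal) and replicate 2 (vertical), each over the background of its own library, with linear axes and a dashed line of equal values. Blue points are the 110 genes at which the replicate peaks overlap, grey points the 62 at which they do not, and 140 of the 172 genes lie above the line.

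Ordered by the weaker of their 2 old −log10 q values, the leading genes were A530032D15Rik, Trpm8, Card14, Olfm5, Rsl1d1, Inpp5b, Cyp3a16, Olfr460, Hoxa7, Ccdc146, Fam185a and Pcdhga7. A530032D15Rik (chr1:85083069-85109853) had fold enrichments of 4.21 and 6.24 (5.23 ± 1.44, mean ± SD, n = 2) with pileups of 55 and 31 in old WT Cre replicates 1 and 2, at summits in an intron 1178 and 1047 bp upstream of the nearest TSS. Trpm8 (chr1:88277661-88389293), the cold-sensing channel of sensory neurons, held the tallest pileups of the set, 71 and 44 fragments, with fold enrichments of 3.07 and 6.19 at 1201 and 1244 bp downstream of the TSS in an intron. Both genes had young peaks just past the window: the nearest young peaks were 1703 and 1686 bp from a TSS of A530032D15Rik and 1910 and 1635 bp from a TSS of Trpm8 in young EC-K4KO replicates 1 and 2. Their absence from the young lists is thus an absence within 1500 bp only.

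Card14 (chr11:119307768-119345375), a scaffold protein that activates NF-κB in skin cells, had fold enrichments of 5.27 and 6.44 with summits 1541 and 1543 bp downstream of an internal TSS. Olfm5 (chr7:104153013-104164831), of the olfactomedin family, had fold enrichments of 5.45 and 7.83 about 1200 bp before the TSS, at −1200 and −1195. Cyp3a16 (chr5:145436309-145469723), a liver cytochrome P450, had fold enrichments of 5.26 and 6.71 at −795 and −783. In these 3 genes the summits of the replicates lay within 12 bp of each other, each on a TG or CA repeat, of which that of Olfm5 is printed above. The odorant receptor gene Olfr460 had fold enrichments of 4.88 and 6.71 at 1544 and 1306 bp upstream of the TSS, between genes.

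Rsl1d1 (chr16:11192970-11203331), which encodes a nucleolar protein with a ribosomal L1 domain, had the highest fold enrichment of the set, 8.58 in replicate 2, beside 5.07 in replicate 1 (6.82 ± 2.48, SD, n = 2). Its summits lay 302 bp before and 334 bp after the TSS, so both fell near the start, and its promoter is CpG-rich. Inpp5b, an inositol polyphosphate phosphatase, had fold enrichments of 5.02 and 6.18, with a summit 783 bp upstream in replicate 1 and 1090 bp downstream in replicate 2. Hoxa7, a transcription factor of the HoxA cluster, had fold enrichments of 4.28 and 5.66, with summits at 365 and −1559 bp. At Inpp5b and Hoxa7 the intervals of the replicates did not overlap, so the replicates shared the gene and not the place. Pcdhga7, a clustered protocadherin, had fold enrichments of 6.01 and 6.34 in its coding exon, at 363 and 776 bp, and these did not overlap either.

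The 2 old replicates marked the same place at 110 of the 172 genes (64.0%), where a promoter peak of one overlapped a promoter peak of the other by at least 1 bp. This share was 62.6% for the genes marked in all 4 libraries, 59.1% for those marked in both old libraries and young EC-K4KO replicate 2, and 62.0% between the young replicates for the reverse pattern. With an overlap of at least 50% of each peak the share was 41.3%. It was then 36.1% for the genes marked in all 4 libraries and 33.8% for those marked in both old libraries and young EC-K4KO replicate 2. The median gap between the leading summits of the old replicates was 204 bp, against 314 and 315 bp in those 2 sets. The leading summits of the replicates lay within 100 bp of each other at 63 genes and more than 500 bp apart at 58. Fold enrichment was higher in replicate 2 at 140 of the 172 genes. Among genes with a wide spread between replicates, Crx, the photoreceptor transcription factor, had 3.41 and 8.43, C87436 had 3.76 and 8.45, and Abcb1a had 2.82 and 7.08. The order was turned at Ckap2l, with 6.95 and 4.85, and at Cdh13, with 5.39 and 3.95.

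The summit nearest to a TSS lay farther from it at these genes than in the comparison sets. The median distance from the nearest TSS to the nearest summit was 396.5 bp in old WT Cre replicate 1 and 432 bp in replicate 2. In the same libraries it was 270 and 223 bp for genes marked in all 4 libraries and 302 and 229 bp for genes marked in both old libraries and young EC-K4KO replicate 2. A summit within 500 bp of a TSS was found at 94 of 172 genes in each old library (54.7%), against 70.6% and 76.0% of the genes marked in all 4. The rule itself asks for no young peak anywhere within 1500 bp and for an old peak anywhere within it, so this difference is a description of the chosen intervals. The distance is also the smallest over all TSS and promoter peaks of a gene, so more of either can only shorten it. The 172 genes had a mean of 1.83 TSS, against 2.48 and 2.203 in those 2 sets. At least 2 promoter peaks were found at 8.72% and 4.07% of them in the old libraries. These shares were 24.4% and 20.9% for the genes marked in all 4 libraries. The part of these numbers in the distance was not tested. The leading summit lay at or downstream of the TSS at 115 and 124 of 172 genes. It fell in an intron at 77 and 73 genes, in a coding exon at 35 and 37, in an untranslated exon part (UTR) at 27 and 34, in a noncoding exon at 6 and 3 and between genes at 27 and 25. The intron shares, 44.8% and 42.4%, were near the 39.4% and 41.3% of the genes marked in all 4 libraries. Those of coding exons were 20.3% and 21.5%, against 18.9% and 17.5%.

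**Figure D2:**
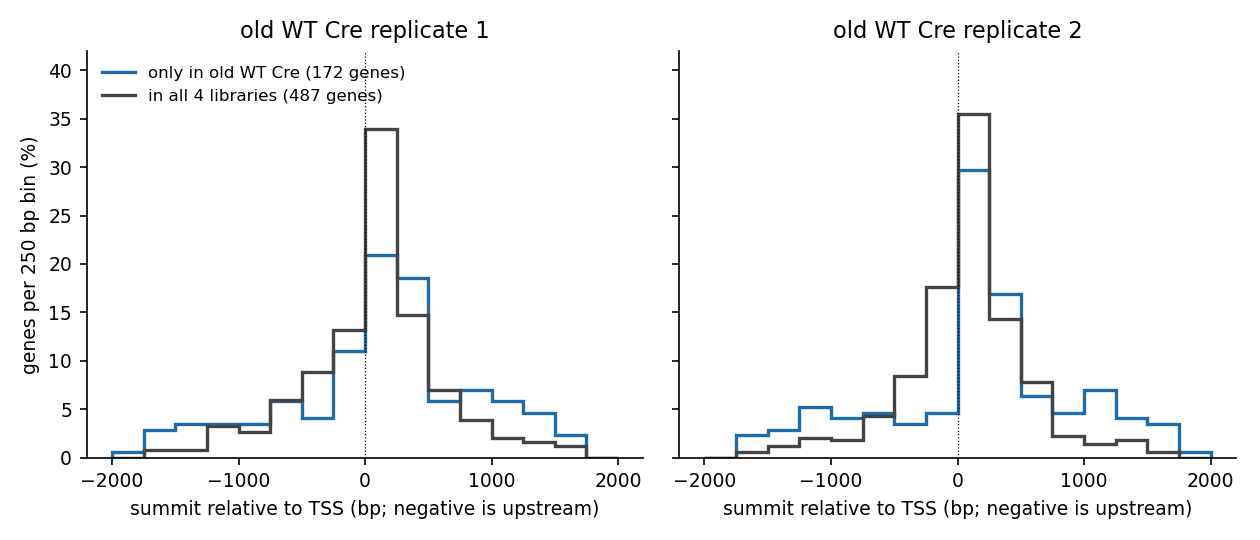
Position of the promoter peak summit nearest to a TSS, relative to that TSS (bp, negative is upstream) in the 2 old WT Cre libraries, as the percentage of genes in each 250 bp bin, for the 172 genes (blue) and the 487 genes marked in all 4 libraries (dark grey). In both libraries the highest bin is just downstream of the TSS for both sets, and the blue lines carry more genes beyond 1000 bp.

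The promoters themselves were mixed in CpG content, a property of sequence that the rule did not use. The observed number of CpG dinucleotides over that expected from base composition, within 500 bp of the TSS, had a median of 0.581 over the 172 genes. It was 0.751 for the genes marked in all 4 libraries, 0.749 for those marked in both old libraries and young EC-K4KO replicate 2, 0.675 for the reverse pattern and 0.573 for all protein-coding genes. Under a ratio of 0.4, here called CpG-poor, were 53 of the 172 (30.8%), against 14.8%, 10.3%, 28.2% and 38.5% in the same order. At least 0.6, here called CpG-rich, were 83 of them (48.3%), against 72.7%, 76.2%, 59.3% and 47.7%, so that the share was close to that of all genes. The CpG-poor share was 48.7% without old WT Cre replicate 2 and 11.9% without young EC-K4KO replicate 2, and it was 13.2% with a window of 500 bp around the TSS. The median gene length was 17687.5 bp, against 37367 bp for the genes marked in all 4 libraries and 17403 bp for all genes.

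CpG content and peak position went together. Among the 53 CpG-poor genes the nearest summit lay at a median of 864 and 1064 bp from the TSS in the 2 old libraries, and among the 83 CpG-rich genes at 311 and 306 bp. The genes marked in both old libraries and young EC-K4KO replicate 2 had a smaller gap of the same direction, with 469 and 465 bp for CpG-poor and 293 and 218 bp for CpG-rich promoters. The reverse pattern had it as well, with 385 and 349 bp against 237.5 and 138 bp in the young libraries. In the genes marked in all 4 libraries CpG-poor promoters had medians of 248.5 and 236 bp and CpG-rich promoters 268.5 and 213 bp. Overlap between replicates did not follow this split, with 34 of 53 CpG-poor and 55 of 83 CpG-rich genes (64.2% and 66.3%).

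**Figure D3:**
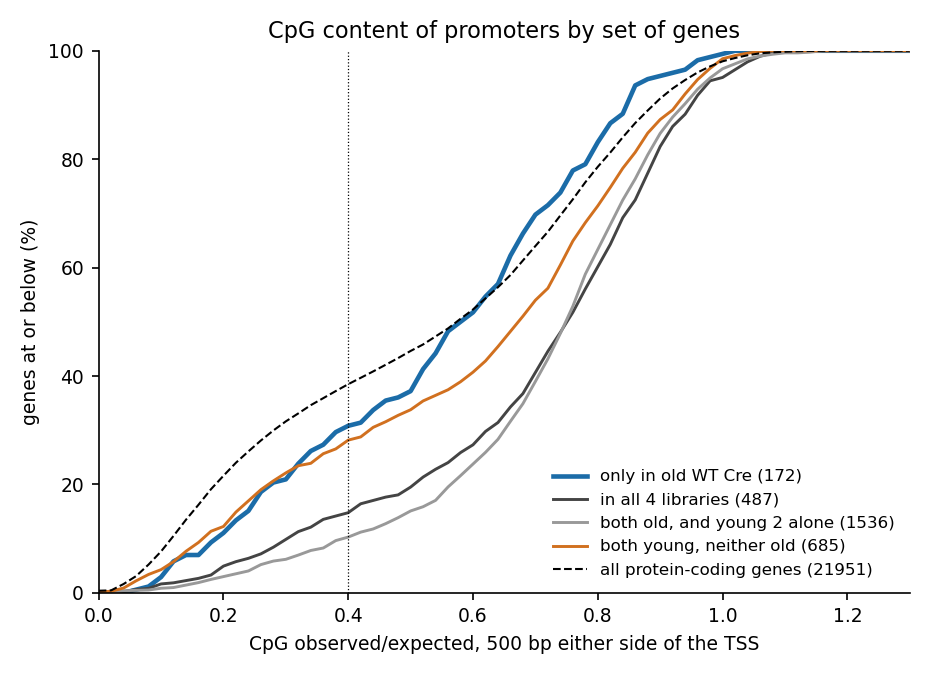
Cumulative percentage of genes (vertical) at or below each CpG observed/expected ratio of the promoter (horizontal, 500 bp either side of the TSS), for the 172 genes, the 3 comparison sets and all protein-coding genes, with a dotted line at 0.4. At 0.4 the blue line of the 172 genes stands at 30.8%, beside 28.2% for the reverse pattern and above 14.8% for the genes marked in all 4 libraries.

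The summits of part of the set lay on TG or CA repeats, a pattern looked for after the leading genes had been seen. An unbroken TG or CA run of at least 16 bases lay within 100 bp of the summit at 10.6% and 11.1% of all old WT Cre peaks (replicates 1 and 2) and at 1.76% and 1.68% of all young EC-K4KO peaks. Among promoter peaks the shares were 4.05%, 2.10%, 0.703% and 0.712%, and within 100 bp of the TSS of all genes the share was 0.615%. Each old library had such a run at the leading summit of 11 of the 172 genes (6.40%). In the genes marked in all 4 libraries the shares were 3.49% and 1.64% in the old libraries. Counting any tandem repeat with a unit of up to 4 bases, 14 of the 172 genes had a run at a summit of either old library and 9 at the summits of both.

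Most of these 14 genes had CpG-poor promoters. Of the 53 CpG-poor genes 12 had a run (22.6%), and of the 83 CpG-rich genes 1. Of the 12 leading genes 5 had one: A530032D15Rik, with runs of 50 and 46 bases at its old summits, Card14, Olfm5, Inpp5b in replicate 1 alone, and Cyp3a16. The interferon-induced gene Ifit3b had a run of 28 bases in both libraries and the pheromone receptor gene Vmn2r55 one of 22 bases. The 158 genes with no run had a CpG-poor share of 25.9% and a replicate overlap of 62.0%, close to the values of all 172. When peaks on such runs were removed from all 4 lists before the rule was applied, 165 genes were chosen, of which 158 were among the 172. The source of these repeat peaks was not tested.

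**Figure D4:**
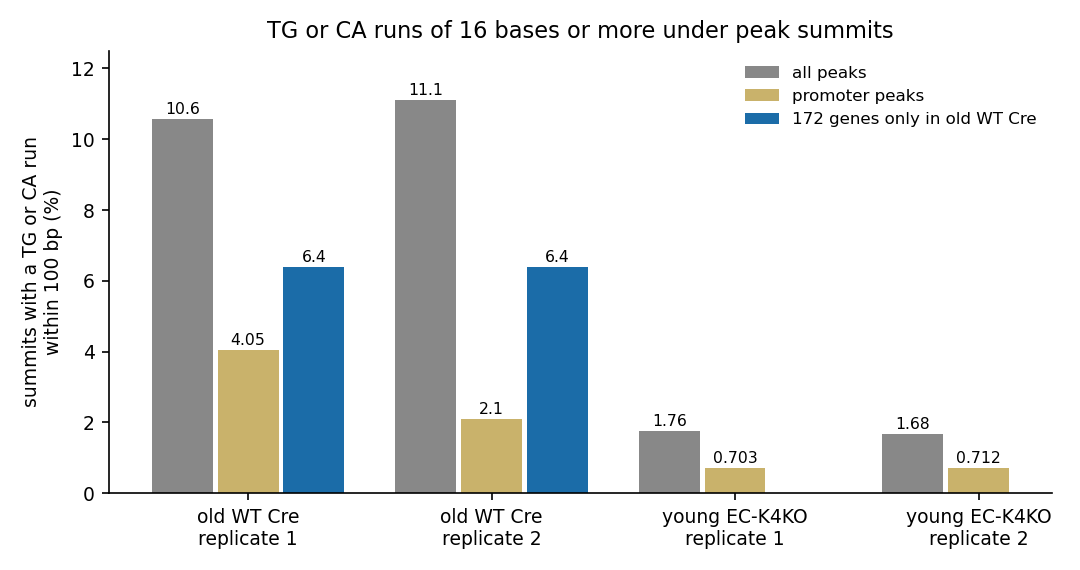
Percentage of peak summits (vertical, from 0) with an unbroken TG or CA run of at least 16 bases within 100 bp, by library, for all peaks (grey), promoter peaks (tan) and the leading peaks of the 172 genes (blue, old WT Cre libraries only). The 172 genes stand at 6.40% in each old library, between promoter peaks and all peaks of the same library.

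A summit window can also sit on sequence that occurs elsewhere in the genome, where reads cannot be placed with certainty. At 12 of 172 genes in each old library (6.98%) the 201 bases around the summit had another copy with at least 95% identity over 90% of its length, against 10.5% and 11.5% of the genes marked in all 4 libraries. Slc51b had at least 1049 such copies and Gm11115 at least 1028 (the search stopped at a fixed number per chromosome), Hist1h4k (a histone H4 gene of a large cluster) had 10, AC170998.1 had 91 in replicate 2 alone, Gm10260 had 7, Gm11937 had 3, Gm13694 had 6 and 7, Myh14 had 3 and 2, Tmem254b had 2, and Pcdha11 and Zfp108 had 11 and 4 in replicate 1 alone. A single further copy was found for Gm2381 in both libraries, for Zfp141 in replicate 1 and for Mfap1a and A530032D15Rik in replicate 2. Peaks at these genes are uncertain as to place.

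The 172 genes were next read by what they are known to do. The groups below were made by hand after the values had been seen, so their counts describe the set and support no theme. The 9 groups hold 75 of the 172 genes, and the other 97 are in no group. Of 19 lists of cell type markers, pathways of the study's field and genes of other tissues (303 genes found, among them muscle, liver, testis and sensory lists), the 172 genes held 1 (0.330% of the list genes, against 0.784% of all genes), the endothelial marker Abcb1a. None of the 25 blood-brain barrier and junction genes, 37 senescence genes, 20 stress genes, 20 interferon and antigen presentation genes or 15 leukocyte adhesion and coagulation genes was among them. With 0.784% of all genes in the set, lists this short would rarely hold any, so these absences are no result about the themes. The lists are also incomplete: Abcb1a is listed under endothelial markers alone, and the interferon-induced Ifit3b and the chaperone gene Hyou1 are in none.

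Abcb1a (chr5:8660077-8748575) encodes P-glycoprotein, the main drug efflux pump of the blood-brain barrier. Its fold enrichments were 2.82 and 7.08 (4.95 ± 3.02, SD, n = 2) with pileups of 14 and 18 fragments, at overlapping intervals with summits 261 and 429 bp into the gene. The peak of replicate 1 was among the weakest of that library, with a −log10 q of 2.44 against 9.72 in replicate 2. The nearest young peaks were 1729 and 6586 bp from a TSS. Of the other endothelial markers, Cdh5, Kdr and Flt1 also had promoter peaks in both old libraries and were kept out of the set by a peak in young EC-K4KO replicate 2.

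A further 7 genes act in vessels or in carriage across them. Lipg, the endothelial lipase, had fold enrichments of 4.30 and 7.03, with summits 1136 bp upstream and 613 bp downstream of the TSS. Cdh13, encoding T-cadherin, had 5.39 and 3.95, Itga6, a laminin receptor subunit, had 3.76 and 4.85, and Slc46a1, the proton-coupled folate transporter, had 3.52 and 5.10. Ntn1, encoding the guidance cue netrin-1, had 4.08 and 4.93 at 1255 and 1355 bp into the gene, Adtrp, a regulator of the coagulation inhibitor TFPI, had 5.07 and 3.73, and Nosip, a partner of nitric oxide synthase, had 3.45 and 5.67. Of these 8 genes, Abcb1a included, 6 were CpG-rich, all but Abcb1a and Adtrp, and the replicate intervals overlapped at 3: Abcb1a, Itga6 and Slc46a1.

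Mitochondrial genes were 8, all with CpG-rich promoters. They were Mrps17 and Tufm, of mitochondrial translation, Ndufs7 of complex I, Atp5k and Atpif1, a subunit and an inhibitor of ATP synthase, Grpel1, a co-chaperone of import, Higd2a, an assembly factor of complex IV, and Mecr, of mitochondrial fatty acid synthesis. Fold enrichment ran from 2.63 to 5.82 with a median of 3.48 in replicate 1 and from 4.03 to 7.65 with a median of 4.96 in replicate 2. The summits lay at a median of 250 and 164.5 bp from the TSS, 6 of the 8 were within 500 bp in both libraries, and the replicate intervals overlapped at 6. Mrps17 had the largest values of the group in replicate 1, with a fold enrichment of 5.82 there and 6.13 in replicate 2, at −3 and 127 bp. Its nearest peak in young EC-K4KO replicate 2 was 1727 bp from a TSS.

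Genes of ribosome assembly, translation and RNA processing were 7, again all CpG-rich. Beside Rsl1d1 they included Nop58, a core protein of box C/D small nucleolar particles, Nop16, of large subunit assembly, Exosc10, a nuclease of the RNA exosome, Ddx39, an RNA helicase, and Tars, threonyl-tRNA synthetase. Nop58 had fold enrichments of 5.45 and 5.59 (5.52 ± 0.104, SD, n = 2) at summits 104 and 73 bp into the gene, the smallest spread of the group. Ddx39 had 4.32 and 4.76 at 53 and 166 bp, and Tars had 3.94 and 5.22 at 152 and 185 bp. Exosc10 had 3.83 and 5.21 at −1052 and 346 bp, intervals that did not overlap. The replicate intervals overlapped at 4 of the 7.

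Genes of cell division and DNA repair were 9, all CpG-rich. Top2a (chr11:98992943-99024189), DNA topoisomerase II alpha, had fold enrichments of 5.82 and 5.69 (5.76 ± 0.0921, SD, n = 2), with pileups of 31 and 17 fragments 162 and 176 bp into the gene. Ckap2l, a protein of the mitotic spindle, had 6.95 and 4.85 at 152 and 173 bp, and its −log10 q of 17.5 was the largest of the set in replicate 1. Cenpw and Cenpx, histone-fold proteins of the centromere, had 4.13 and 4.47, and 2.55 and 5.86. Fanca of the Fanconi anemia pathway had 3.91 and 4.75 at 184 and 175 bp, and Ercc6 of transcription-coupled repair had 4.51 and 5.22 at 200 and 138 bp. The others were Mad2l2, Spidr and Slf1, which act in the choice or repair of DNA breaks. Replicate intervals overlapped at 8 of the 9 genes, and 7 of the 9 had summits within 500 bp of the TSS in both libraries.

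A smaller number act on transcription and on proteins. Ell, an elongation factor of Pol II, had fold enrichments of 2.99 and 5.07 at −565 and −586 bp. Taf5, a subunit of TFIID, had 4.88 and 4.04, Rprd1a, which binds the C-terminal domain of Pol II, had 3.51 and 4.27, Hdac3, a histone deacetylase, had 3.52 and 3.78, and Rxra, the retinoid X receptor alpha, had 3.56 and 4.64. Among genes of protein folding and turnover, Hyou1, a chaperone of the endoplasmic reticulum, had 3.82 and 5.10, Psmc3, a proteasome ATPase, had 3.83 and 4.17 and Rnf216, a ubiquitin ligase, had 4.54 and 4.14. Ufsp1, a protease of the ubiquitin-like protein UFM1, had 3.05 and 3.98.

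Developmental transcription factors were 10: Hoxa3, Hoxa7, Hoxd12, Prrxl1 of sensory neurons, Crx of photoreceptors, Nobox and Obox6 of the germ line and early embryo, Foxd4, Nhlh2 and Bhlha9. Of the 10, 3 were CpG-rich and 4 were CpG-poor, and their summits lay at a median of 1038.5 and 1241.5 bp from the TSS. Hoxd12 had fold enrichments of 4.29 and 5.54 in its coding exon at 869 and 284 bp, and Nhlh2 had 4.88 and 4.85 at 1576 and 1603 bp. Nobox had 3.94 and 5.22 at −129 and −56 bp. Replicate intervals overlapped at 5 of the 10.

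Genes of neurons and synapses were 10, of which 3 are clustered protocadherins: Pcdha3, Pcdha11 and Pcdhga7. The annotation has another gene record with the symbol Pcdha11, which overlaps this one and had promoter peaks in all 4 libraries, so the symbol as a whole was not without young peaks. Nrgn, neurogranin, had fold enrichments of 3.0 and 3.73 with pileups of 15 and 9 fragments, close to the smallest of their libraries. Lin7b, a scaffold of synapses and junctions, had 3.78 and 6.07 at 410 and 437 bp, Rapsn, which clusters acetylcholine receptors in muscle, had 3.31 and 4.28, and Gfra3, a receptor of the GDNF family, had 3.31 and 3.98 at 236 and 206 bp. P2rx2, an ATP-gated channel, had 3.28 and 5.97 at −58 and 10 bp. The group also held C1ql3 and Ntf5, a neurotrophin. Of the 10, 4 were CpG-rich and 1 was CpG-poor, and replicate intervals overlapped at 4.

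The last group, 13 genes known for use in other tissues, had the poorest CpG content, with 12 of 13 CpG-poor. It held the gut and pituitary-axis hormones Gip and Ghrh, the stomach peptide Tff1, the airway protein Bpifa1, the keratin genes Krt23 and Krtap10-4, the liver enzyme Cyp3a16, the receptors Olfr460, Vmn2r55 and Trpm8, the testis genes Spata19 and Tex12, and Cd6, a surface glycoprotein of T cells. Summits lay at medians of 1033 and 946 bp, yet the replicate intervals overlapped at 10 of the 13. Gip had fold enrichments of 5.57 and 5.46 (5.52 ± 0.078, SD, n = 2) at −1403 and −1152 bp, and Ghrh had 4.21 and 4.71 at −1033 and −1036 bp. Krt23 and Tex12 alone of the group had both summits within 500 bp of the start, with 4.51 and 5.59 at 139 and 175 bp for Krt23 and 4.51 and 4.47 at −245 and 152 bp for Tex12. Of the 9 groups, the mitochondrial, ribosomal and cell division genes had the nearest median summits in replicate 2 beside those of protein folding, and the developmental factors and genes of other tissues had the farthest.

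By family name the set was thin and scattered. Of 59 families, 8 had at least 3 genes in the set, 29 had none, and 60 of the 172 genes belonged to any. Predicted genes with Gm numbers gave 7 of 1506, among them Gm11937, Gm2381, Gm13694 and Gm11115, and genes with RIKEN names gave 6 of 587, among them A530032D15Rik, 1700017N19Rik, 4930430F08Rik and 1110025L11Rik. Solute carriers gave 4 of 385: Slc17a9, a vesicular nucleotide transporter, Slc46a1, Slc51b, a bile acid transporter subunit, and Slc35b1. Genes named Fam gave 4 of 204 (Fam185a, Fam71e2, Fam196a and Fam110a), C2H2 zinc finger genes 3 of 467 (Zfp141, Zfp108 and Zfp329) and leucine-rich repeat genes 3 of 75 (Lrrc74b, Lrrc4 and Lrrc45). Clustered homeobox genes gave 3 of 39 (7.69%) and protocadherins 3 of 69 (4.35%), against 0.784% of all genes. In these families 8 (20.5%) and 14 (20.3%) had a promoter peak in both old libraries, against 10.1% of all genes. Of 1135 olfactory receptor genes 1 was in the set and of 331 vomeronasal receptor genes 1, while of 67 replication-dependent histone genes, 27 of which (40.3%) had a promoter peak in both old libraries, 1 was in it, Hist1h4k.

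Part of the set is counted in pairs because neighbouring genes shared a peak. In both old libraries, 11 pairs shared a promoter interval, 22 genes in all, among them 1700017N19Rik and 4930430F08Rik, 2210408I21Rik and Slf1, Ccdc146 and Fam185a, Cenpx and Lrrc45, Efcab9 and Stk10, Gm28308 and Hoxa3, Hdac3 and Rell2, Higd2a and Nop16, Lrcol1 and P2rx2, and Lrrc74b and P2rx6. Such an interval cannot be assigned to either gene. The interval of Slf1 and 2210408I21Rik, whose starts are 67 bp apart, had a fold enrichment of 3.0 in replicate 1 and 7.46 in replicate 2 (chr13:77135077-77135381 and chr13:77135064-77135610). The interval of Ccdc146 and Fam185a, with starts 281 bp apart, had 4.88 and 6.34 and overlapped a coding exon of Fam185a rather than the gap printed above. That of Higd2a and Nop16 had 3.21 and 5.50, with summits 561 and 465 bp into Higd2a.

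The pairs Cenpx and Lrrc45, Hdac3 and Rell2, and Lrrc74b and P2rx6 shared an interval in each old library, but those of replicate 1 and replicate 2 did not overlap each other. At Lrrc74b and P2rx6 they were chr16:17560126-17560530, with a fold enrichment of 5.93, and chr16:17561969-17562156, with 3.91. Of the 172 genes, 18 (10.5%) had the TSS of another gene within 1000 bp on the opposite strand, 14 of them a partner in the set, against 15.8% of the genes marked in all 4 libraries and 9.01% of all genes.

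Within 100 kb of each other lay 39 of the 172 genes (22.7%), in 19 runs. The share was 27.7% for the genes marked in all 4 libraries, 33.0% for those marked in both old libraries and young EC-K4KO replicate 2 and 25.4% for the reverse pattern. These sets hold more genes, and the part of set size in the shares was not tested. The share was 36.4% without young EC-K4KO replicate 2, in the set of 1708 genes. Runs with a shared interval were 11, and the other 8 held 16 genes with separate peaks: Ercc6 and Prrxl1, Pcdha3 and Pcdha11, Rapsn and Psmc3, Atp5k and Mfsd7a, Arhgef5 and Nobox, Fam71e2 and Isoc2b, Obox6 and Crx, and Lin7b and Ntf5. The longest run by number was the 3 genes Hoxa3, Gm28308 and Hoxa7 on chromosome 6, starting within 8518 bp of each other in the HoxA cluster. Hoxa3 and Gm28308 shared an interval with fold enrichments of 4.24 and 3.14, and Hoxa7 had its own peaks.

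Chromosome 2 held 20 of the genes, chromosome 7 held 19, chromosome 11 held 17, chromosome 5 held 15 and chromosome 9 held 13. As a share of its protein-coding genes, chromosome 18 was highest with 10 of 513 (1.95%): Pcdha3, Pcdha11, Pcdhga7, Hdac3, Rell2, Lipg, Ndst1, Isoc1, Rprd1a and Gfra3. It also had the highest share of genes with a promoter peak in both old libraries, 18.5%. Chromosome 3 was lowest of the autosomes with 2 of 1004 (0.199%), Prcc and Nhlh2, followed by chromosome 1 with 3 of 1208 (0.248%). Chromosome X held 0 of 948 genes and chromosome Y 0 of 183. On X, 43, 34, 12 and 537 genes had a promoter peak in the 4 libraries, and 4 had one in both old libraries, so few could enter.

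**Figure D5:**
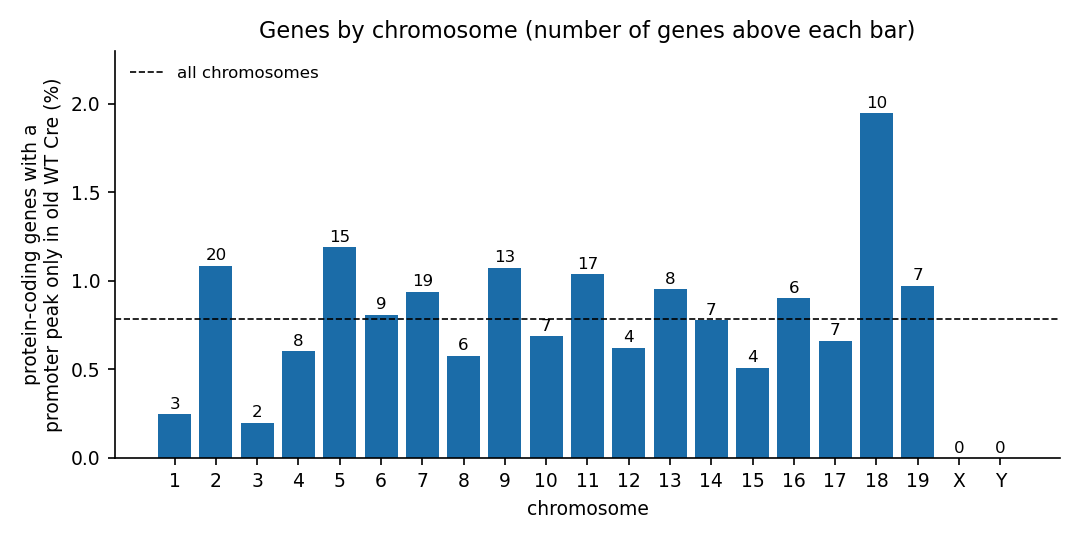
Percentage of the protein-coding genes of each chromosome (vertical, from 0) that belong to the 172 genes, with their number above each bar and a dashed line at 0.784%, the share over all chromosomes. Chromosome 18 stands highest at 1.95% with 10 genes, and chromosomes X and Y have none.

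How far the genes were from a young peak differed between the young libraries. In young EC-K4KO replicate 1 the nearest peak lay at a median of 22217 bp from a TSS (1503 to 206479 bp), and in replicate 2 at 4082 bp (1509 to 28293 bp). For the 6626 other genes without a young promoter peak the medians were 29321.5 and 4797.5 bp. In young EC-K4KO replicate 2, 63 of the 172 genes (36.6%) had a peak within 3000 bp, against 28.9% of those 6626 genes. Just inside the rule by distance were Ntf5, Mad2l2, Gm11115, Slc51b and Ndst1, with a young peak 1503, 1509, 1510, 1520 and 1526 bp from a TSS. Just outside were Klhl38, Fam69c, Gad2, Cdh5 and Ofcc1, with a young peak 1481, 1477, 1476, 1468 and 1468 bp away. Cdh5, the adhesion molecule whose promoter drives the Cre used here, was thus kept out by a young peak near the edge of the window.

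By strength, the weakest genes inside the rule had a −log10 q near the caller's limit in 1 old library: 2.05 at Fam110a and Tmem254b, 2.08 at Alox12e, 2.24 at Pstpip1 and 2.28 at Ntf5. The genes just outside with the weakest young peaks were Vmn1r219 at 2.01, Dnajc14 at 2.31 and Gsap, Prkd3 and Zdhhc15 at 2.57. With a q-value of at most 1e-05 in all lists the rule gave 96 genes, of which 63 were among the 172, and with a fold enrichment of at least 4 it gave 90, again with 63 among the 172. With each list cut to the strongest 35638 peaks it gave 391, of which 70 were among the 172.

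In the set under every one of 5 other settings were 12 genes. The settings were a q-value of at most 1e-05 and a fold enrichment of at least 4, each asked of the peaks of all 4 libraries so that weak young peaks no longer counted, and windows of 500, 1000 and 3000 bp. The 12 were Rsl1d1, Fam185a, Zfp141, Hmgcll1, Gm11937, Parp4, R3hcc1l, 4930430F08Rik, Krt23, Nop58, Gm13694 and Ifit3b. Zfp141, a zinc finger gene on chromosome 7, had the smallest spread of the 12, with fold enrichments of 6.39 and 6.34 (6.36 ± 0.0326, SD, n = 2), pileups of 33 and 16 fragments and overlapping intervals 341 and 364 bp into the gene. Hmgcll1, an HMG-CoA lyase, had 4.51 and 7.08 across the TSS, at 19 and −30 bp, and the young peak nearest to it was 25876 bp away in replicate 2 and 90120 bp away in replicate 1. Parp4, a member of the poly(ADP-ribose) polymerase family, had 4.51 and 5.97 at 123 and 3 bp, and R3hcc1l had 4.70 and 5.97 at 437 and 131 bp. 4930430F08Rik had 6.39 and 5.59 at 243 and 425 bp, in the interval it shares with 1700017N19Rik. Ifit3b had 4.56 and 5.22 at 371 and 361 bp on the TG run named above. Gm11937, Gm13694 and, in replicate 1, Zfp141 lay on sequence with at least 1 further copy in the genome.

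Peaks along the gene bodies, which the rule did not use, were found in all 4 libraries. Of the 160 genes with a body beyond the promoter window, 95 and 77 had a peak in the body in the old libraries and 60 and 130 in the young ones (replicates 1 and 2). In that order these were 59.4%, 48.1%, 37.5% and 81.2% of the genes, against 49.9%, 35.2%, 27.7% and 73.7% of the 20589 protein-coding genes with a body of this kind. The genes marked in all 4 libraries had 70.3%, 51.7%, 47.2% and 82.5%, and those marked in both old libraries and young EC-K4KO replicate 2 had 66.0%, 46.5%, 39.8% and 83.7%. Shares above that of all genes were thus found in these sets too, and the counts followed the order of the libraries' total number of peaks. The shares were not adjusted for body length. The 160 bodies had a median length of 19238 bp, against 17289 bp over all genes and 39978.5 and 33749 bp in those sets. Per 100 kb of body, the 160 genes had 3.91, 2.12, 1.69 and 11.2 peaks, against 3.37, 1.55, 1.24 and 9.84 over all genes. The genes marked in all 4 libraries had 3.3, 1.58, 1.49 and 8.85. Those marked in both old libraries and young EC-K4KO replicate 2 had 3.72, 1.62, 1.3 and 10.3. The 160 genes thus had the highest density of these sets in each library.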

How the data were processed

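RNA Pol II ChIP-seq libraries were analysed, 2 of old WT Cre mice and 2 of young EC-K4KO mice. According to the study's methods, the authors trimmed reads with TrimGalore, aligned them with Bowtie2 to mm10, and filtered duplicates using Picard and SAMtools, whereas the deposited file headers give MACS 2.2.7.1 with paired-end fragments, all duplicates kept, no control and a q-value limit of 0.01, run on each library alone. The deposited peak tables give pileup (a coverage signal at the summit), fold enrichment (a ratio over local background) and −log10 p and q, which the authors did not scale between libraries. A consensus of replicates was not used here.

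Intervals were matched to TSS of 21951 protein-coding genes (GENCODE M21, GRCm38) at an overlap of at least 1 bp, with pandas 2.3.3 and numpy 2.4.6 in Python 3.11.15, sequences were read with pysam 0.24.0 and copies found with blastn 2.17.0, and the steps were checked on simulated peaks. Samples were grouped by their titles. The groups of genes, the lists and the alternatives were chosen with earlier results of these data known, and no test was run because the rule uses all libraries. Named were the 12 genes with the largest smaller −log10 q, genes in a marker list, in pairs or runs within 100 kb, up to 4 of each family with at least 3 genes, 12 kept under 5 other settings, and genes at the edges of the rule. The genes of the functional groups, of the tandem runs and of the copies were chosen after their values were seen. Pileups limit precision: the smallest called were 13 and 8 fragments in the old libraries and 9 and 7 in the young ones. Alternatives were a q-value of at most 1e-05, a fold enrichment of at least 4, equal lists, other TSS windows and transcripts, every biotype, and leaving out each library. Some items are not reported here.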

Additional observations from a re-analysis of the deposited data

How the results depend on the processing

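The number of genes was 96 at a q-value of at most 1e-05, 90 at a fold enrichment of at least 4, 391 with lists of equal length, 393 with genes of every biotype and 195 to 1708 when 1 library was left out. The share of genes at which old replicate peaks overlapped, 64.0%, was 80.6% with a TSS window of 500 bp, 52.6% with 3000 bp and 41.3% with a reciprocal overlap of 50%. It was 59.6% to 64.6% without a young library, and leaving out an old library gives no such value. The median summit distance, 414.25 bp as the mean of both old libraries, was 451.75 bp at the stricter q, 510.75 bp at the minimum fold, 341.5 bp with equal lists, 482.5 bp with the 5′-most TSS, 526 bp with every biotype, 277 to 423.5 bp without 1 library, and 216, 312.25 and 579.25 bp with windows of 500, 1000 and 3000 bp, which bound the distance by construction. The CpG-poor share, 30.8%, was 21.2% with equal lists, 13.2%, 20.99% and 38.5% with those 3 windows, 54.7% with every biotype, 51.7% when poor meant a ratio under 0.6, and 11.9% to 48.7% without 1 library. The share with another gene of the set within 100 kb, 22.7%, was 14.4% at the minimum fold, 9.72% and 13.6% with windows of 500 and 1000 bp, 15.95% when the summit had to lie in the window, 39.0% within 1000 kb, and 22.6% to 36.4% without 1 library. Among alternatives chosen after seeing the data, a q-value of at most 1e-05 in the old libraries alone left 63 genes with a distance of 510 bp, a CpG-poor share of 41.3% and a neighbour share of 6.35%. The distance was 375.75 bp for genes off tandem repeats and 367 bp when such peaks were removed first. The cause of the other shifts was not tested. Of 96 values recomputed, 41 moved beyond the bound set for them and 55 did not. The bound was a factor of 1.5 for the number of genes and the SD of the 2 old libraries for the distance. For shares it was an exact binomial 95% interval over genes. That interval takes genes as independent, though some share a peak, so these counts do not measure how robust the values are. No paired analysis was possible because the values come from no test, and the labels share replicate numbers without stating a pairing.

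An absent young peak means that no interval was called. The smallest called pileups in the young libraries were 9 and 7 fragments, and the number of peaks did not follow depth, since the shallowest library had the most. There were 2 libraries per group.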
